A study of Mus musculus with 2 samples.

Results

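The clustered protocadherins are cell-surface adhesion proteins of neurons, encoded by the Pcdha, Pcdhb and Pcdhg genes, which stand next to each other on mouse chromosome 18. The protein-coding genes of the GENCODE M21 annotation on this chromosome whose symbols start with Pcdha, Pcdhb or Pcdhg were taken, which gave 57 genes of 21851 protein-coding genes in all. They comprise 14 alpha, 22 beta and 21 gamma genes and span 912 kb (chr18:36930184-37841873 in mm10); 200 kb on either side was described with them. The gamma array also holds the annotated gene Pcdhgb8, which the rule did not take, so its promoter is not described. The 57 genes carry 56 symbols, because the annotation gives the symbol Pcdha11 to 2 alpha genes; the one that starts first, at position 37005203, is called upstream Pcdha11 here.

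Tissue came from the left cerebral cortex of female mice of the cross B6CASTF1/J, taken at postnatal day 4, and was assayed by DNase-seq. This method finds the places where the enzyme DNase I cuts chromatin readily, called DNase I hypersensitive sites (DHSs), and footprints, short protected stretches inside them. B6CASTF1/J is an F1 hybrid of the inbred strains C57BL/6J and CAST, and the files place all reads in the single genome mm10. The 2 libraries, replicate 1 and replicate 2, form 1 group that shares strain, sex, age and tissue. They are labelled as biological replicates, and the labels do not say how many mice went into each. There was no treatment and no second condition, so no contrast could be tested. All cell types of the tissue are pooled in a library, and fewer cells with an open site cannot be told apart from less cutting per cell.

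Each alpha or gamma gene begins with its own variable exon and promoter, and the variable exons of a family are spliced to the same constant exons at the end of that family. Single neurons are known to use a small, varying choice of these promoters, which CTCF and cohesin bring to distant enhancers, and that choice gives neurites a surface identity by which branches of the same cell avoid each other. The C-type genes (Pcdhac1, Pcdhac2, Pcdhgc3, Pcdhgc4 and Pcdhgc5) stand last in the alpha and gamma arrays and are known for use that is less dependent on this choice. Beta genes each have a coding exon of their own and share no constant exons.

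At 3 of the 57 genes a DHS called in both libraries lay within 1 kb of a transcription start site (TSS), against 55.7% of all protein-coding genes. All 3 were C-type genes: Pcdhac1, Pcdhac2 and Pcdhgc3. Among the 52 genes that are not C-type, 0 had a shared promoter DHS. Replicate 1 alone had a promoter call at 3 of the 57 (57% of all genes) and replicate 2 alone at 5 (60.2% of all genes); the 2 genes added by replicate 2 were Pcdhgc4 and Pcdhga12. These counts come from the stricter of the 2 peak lists that the authors deposited for each library. Calls have a signal value, the authors' tag density, whose scaling is not stated, so the values of the libraries stand side by side and are ranked within a library.

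**Figure D1:**
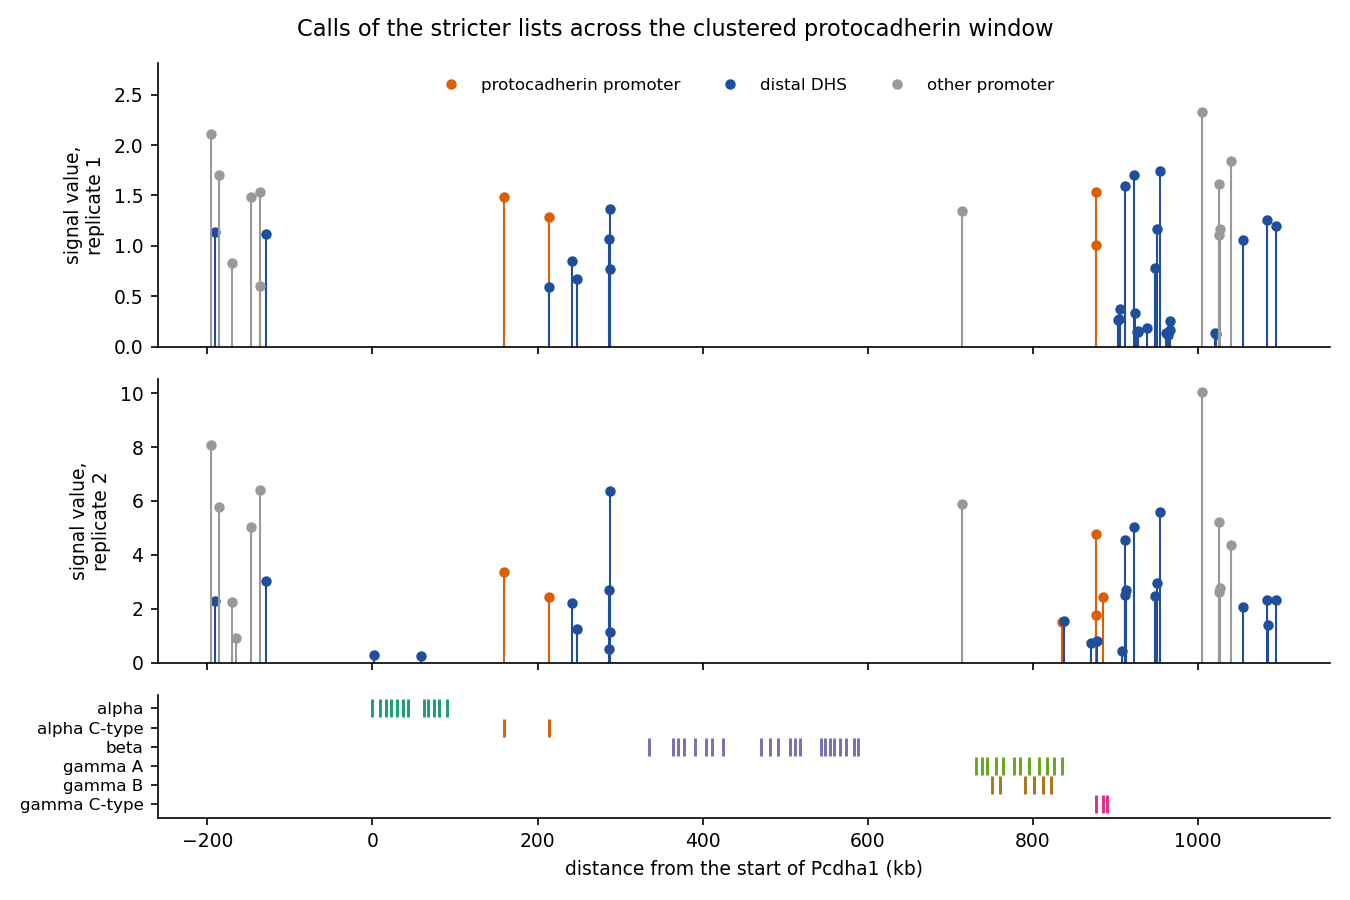
Signal value (authors' units, vertical axes) of each call of the stricter lists in replicate 1 and replicate 2 against distance from the start of Pcdha1 in kb; ticks in the lowest panel mark the first TSS of each gene by family. Overlapping calls of the libraries were joined and the highest value in each library is drawn. The beta genes and most alpha and gamma genes lie over stretches without a point, and the points gather at the C-type genes, past the alpha and gamma constant exons and at the neighbouring genes.

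Pcdhac1, the first alpha C-type gene (chr18:37090013-37187657), had its call directly over the TSS, with a signal value of 1.49 in replicate 1 and 3.37 in replicate 2. These stood at percentiles 46.0 and 41.4 of the highest promoter call of each called gene, so Pcdhac1 lay slightly below the middle in both libraries. The call covered chr18:37089841-37090100 in replicate 1 and a stretch inside it in replicate 2.

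Pcdhac2, the last alpha gene before the constant exons (chr18:37143503-37187657), had 2 promoter calls in each library. The call over the TSS had a signal value of 1.28 in replicate 1 and 2.42 in replicate 2, at percentiles 35.2 and 28.5. A second call started 478 bp downstream, inside the variable exon, with 0.967 and 1.51. Joined, they formed the widest of the shared promoter DHSs at these genes, 1060 bp.

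Pcdhgc3, the first gamma C-type gene (chr18:37806364-37841873), had the highest promoter signal value of the 57 genes in both libraries, 1.54 and 4.77, at percentiles 48.8 and 57.6. A second DHS downstream of the TSS had 1.01 and 1.76. The order of the 3 genes was the same in both libraries, with Pcdhgc3 highest and Pcdhac2 lowest. In replicate 1 Pcdhgc3 and Pcdhac1 differed little, with 1.54 and 1.49, so their order there carries little weight.

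Pcdhgc4 (chr18:37815079-37841873) and Pcdhgc5 (chr18:37819513-37841873) are the remaining C-type genes. Pcdhgc4 had a signal value of 2.45 in replicate 2 (percentile 28.9) and no call in the stricter list of replicate 1, where the lenient list held one with a value of 0.887. Pcdhgc5 had no call in any list and no base within 1 kb of a TSS with a listed false discovery rate in either library. C-type genes thus ranged from a DHS in both libraries to none.

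In the lenient lists shared promoter DHSs numbered 4 of 57, the 3 genes above and Pcdhgc4, against 61.5% of all genes. The lenient list of replicate 1 had a promoter call at 5 of the 57 (63.2% of all genes) and that of replicate 2 at 10 (64.8% of all genes). No promoter call in either lenient list was found at 46 of the 57 genes, beside 7386 of all 21851 protein-coding genes. Among the 46 were 11 of the 12 alpha genes that are not C-type and 21 of 22 beta genes. So were 8 of 12 gamma A genes and 5 of 6 gamma B genes.

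Outside the C-type group, genes with only weak or single-library calls occurred in each array, most of them in the gamma array. Pcdha1, the first alpha gene, had a lenient call of 0.244 in replicate 2 and none in replicate 1. Pcdhb1, the first beta gene, had one of 0.347 in replicate 2 and none in replicate 1. Both genes stand at the start of their array, and their neighbours Pcdha2 and Pcdhb2 had no call in any list.

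In the gamma array Pcdhga12, the last gamma A gene, had the strongest of these calls, 1.51 in the stricter list of replicate 2 (percentile 14.9), which began 241 bp downstream of the TSS; replicate 1 had none. Pcdhga1, the first gamma gene, had lenient calls in replicate 2 of 0.52 and 0.504, and Pcdhga2 had none. Pcdhga3 (0.591) and Pcdhgb7 (0.756) had a lenient call in replicate 2 only, and Pcdhga11 (0.542) in replicate 1 only; these 3 were singled out after their values were seen. No gene outside the C-type group had a lenient call in both libraries.

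The authors' table of cut rate gives a false discovery rate (FDR) for runs of bases and lists only those under 0.05, so it also covers promoters without a call. In replicate 1, 7 of the 57 genes had a listed base within 1 kb of a TSS, against 64.2% of all genes. In replicate 2 it was 10, against 65.5% of all genes. In 46 of the 57 (80.7%) no base was listed in either library, which held for 32.8% of all genes. These 46 were the same genes that had no promoter call in either lenient list, so this count repeats that result. An FDR under 0.001 occurred at 3 genes in replicate 1 (58% of all genes) and at 6 in replicate 2 (60.8% of all genes).

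The number of listed bases was highest at the 3 genes with a shared promoter DHS. Pcdhgc3 had 1406 in replicate 1 and 1475 in replicate 2. Pcdhac2 had 1158 and 1172, and Pcdhac1 had 612 and 1064, so these 3 were the highest in each library. Among the other C-type genes Pcdhgc4 had 166 and 296, and Pcdhgc5 had 0 in both.

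Pcdhb1 had 12 listed bases in replicate 1 and 479 in replicate 2, where its lowest FDR was 0.000821. Pcdhga12 had 0 and 578, and Pcdha1 had 0 and 197. Pcdhga3, with 41 and 62, was the only gene besides Pcdhb1 and these C-type genes with a listed base in both libraries. The median gene of all protein-coding genes had 604 and 679 listed bases, and the median over the 57 was 0 in both.

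**Figure D2:**
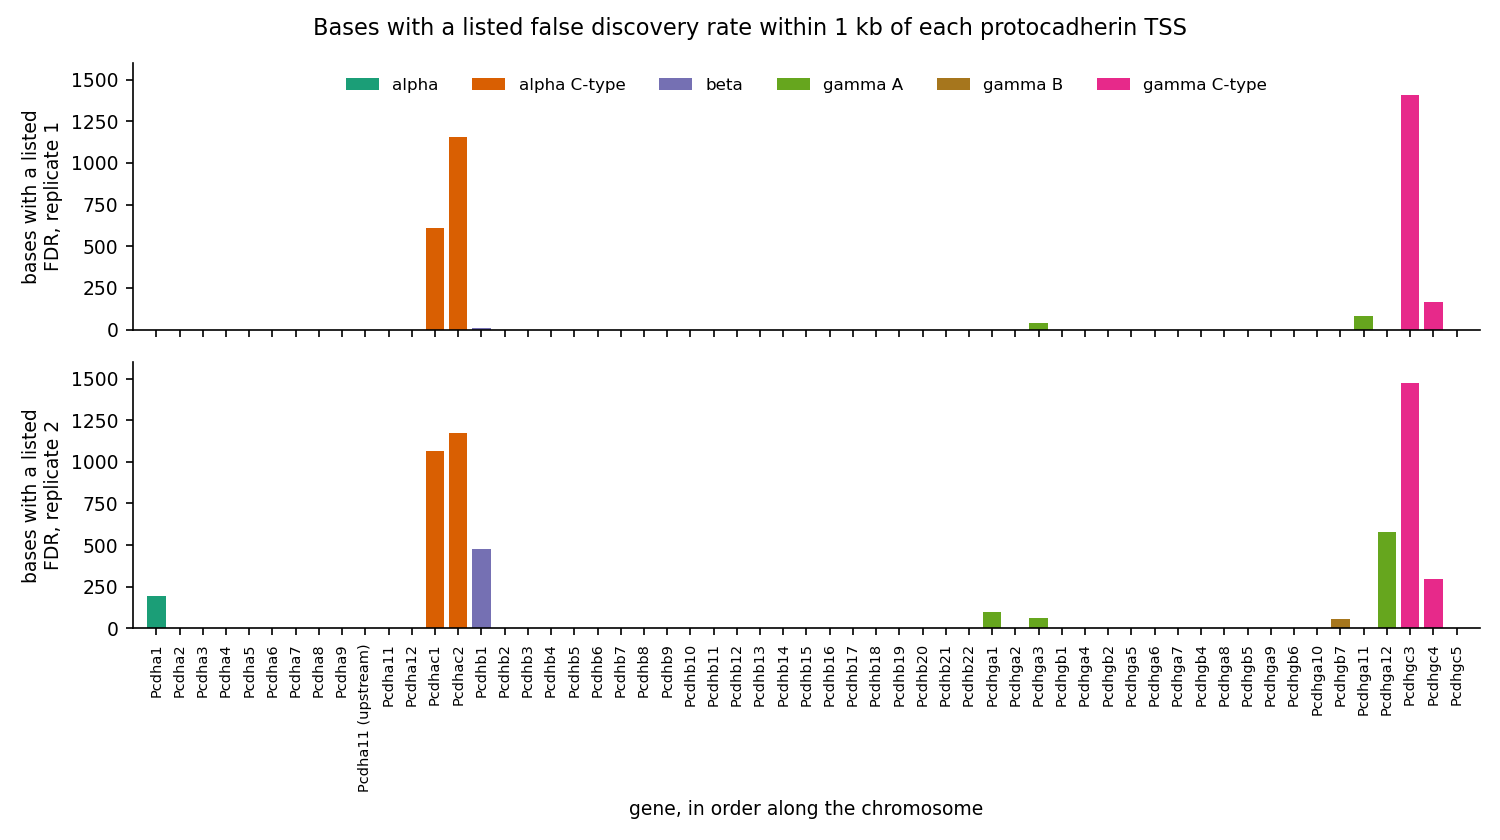
Number of bases with a listed FDR (under 0.05) within 1 kb of the TSSs of each of the 57 genes, in order along the chromosome, in replicate 1 and replicate 2; colours mark the families. Tall bars stand at Pcdhac1, Pcdhac2 and Pcdhgc3 in both libraries, up to 1406 and 1475 bases, and at Pcdhb1 and Pcdhga12 in replicate 2 only.

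Genes of other kinds in the same libraries were called far more often. The 12 non-clustered protocadherins are adhesion genes, each with a promoter of its own. They lie elsewhere in the genome or, for Pcdh1 and Pcdh12, farther along chromosome 18. Of these, 11 had a shared promoter DHS, beside 55.7% of all protein-coding genes. Pcdh9 had signal values of 2.42 and 9.93, Pcdh10, linked to axon growth, had 2.19 and 9.77, and Pcdh19, known from a form of epilepsy, had 0.817 and 2.12. The exception was Pcdh12, an endothelial protocadherin, with no call in any list. Their called members ran from percentile 0.971 to 86.2 in replicate 1 and from 1.68 to 92.2 in replicate 2, so called clustered genes lay within that range.

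Of 19 listed regulators (genes of CTCF and cohesin looping, DNA methylation or silencing), 19 had a shared promoter DHS, beside 55.7% of all protein-coding genes. Many of them act throughout the genome. Of all genes with an observed to expected CpG ratio of 0.6 or more near the TSS, 90.7% had a shared promoter DHS. The part of CpG content in the calls of the regulators was not tested. Ctcf, the zinc finger protein that binds the variable promoters and enhancers, had signal values of 1.62 and 6.38. Rad21 (1.41 and 6.33) and Smc3 (3.32 and 12.6) encode cohesin subunits, and Stag1, another subunit, was the highest of the list with 4.51 and 17.9. Wapl, which releases cohesin, had 2.18 and 7.09, and Nipbl, which loads it, 1.49 and 4.76. Dnmt3b, a DNA methyltransferase known to methylate variable promoters, had 0.864 and 1.39, and Smchd1, a chromatin protein known to silence parts of the cluster, 2.11 and 5.32.

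Neighbouring genes also carried promoter DHSs. In the 200 kb before the cluster 7 of 8 genes had a shared one, and in the 200 kb after it 4 of 5. Over all protein-coding genes the share was 55.7%. Zmat2, the last gene before Pcdha1, had 1.54 and 6.40, and Diaph1, the actin regulator that follows the gamma genes, 2.33 and 10. Inside the span stand 5 other protein-coding genes. Taf7, a subunit of the general transcription factor TFIID that lies between the beta and gamma arrays, had a shared DHS with 1.35 and 5.88. The mitochondrial carrier gene Slc25a2 beside it had none, nor had Gm42416, Gm37013 and Gm37388, gene models that start among the alpha genes and run into the gamma exons.

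**Figure D3:**
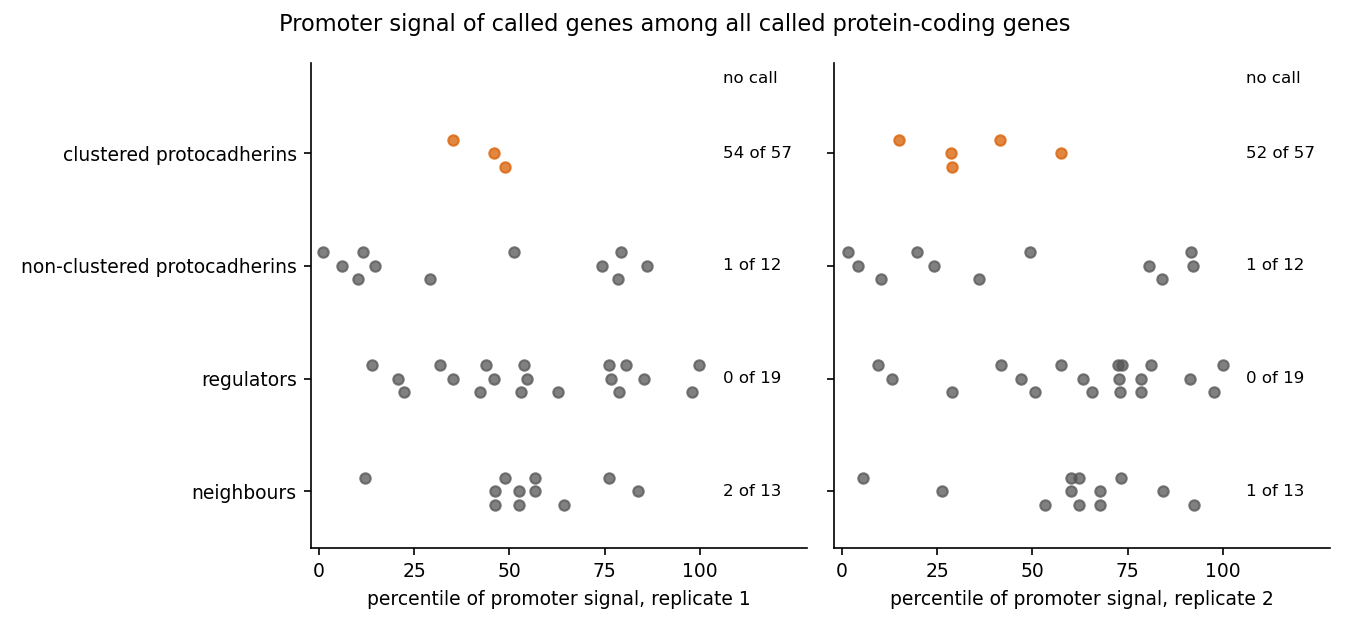
Percentile of the highest promoter signal value of each called gene among all called protein-coding genes, per library (stricter lists), for the 57 clustered protocadherins, the 12 non-clustered ones, the 19 regulators and the 13 neighbours; each point is a gene, spread vertically for legibility, and the numbers at the right give genes without a call. Clustered protocadherins without a call number 54 of 57 in replicate 1 and 52 of 57 in replicate 2, and the called ones lie at or below percentile 57.6.

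The libraries differed in the markers of the tissue. Cortical neuron markers had a promoter call at 5 of 10 genes in replicate 1 and at 9 of 10 in replicate 2. Inhibitory neuron markers had one at 1 of 4 and 3 of 4. Over all protein-coding genes the shares were 57% in replicate 1 and 60.2% in replicate 2. Neurod2 had no call in replicate 1 and 4.02 in replicate 2, Neurod6 none and 1.36, and Bcl11b none and 1.97, whereas Cux1 (0.878 and 3.03) and Cux2 (1.47 and 2.87) were called in both. Markers of astrocytes were called at 1 of 4 genes in each library and those of the oligodendrocyte lineage at 2 of 4 and 3 of 4. Microglia (3 genes), endothelium (2) and liver (2) markers had no call in the stricter lists. Replicate 2 also had calls that replicate 1 lacked at the oligodendrocyte lineage marker Olig2 (2.1) and the neighbouring gene Dnd1 (0.922). The part of such differences between the libraries in the calls at Pcdhgc4 and Pcdhga12 was not tested. Calls numbered 59355 in replicate 1 and 46566 in replicate 2, and at shared DHSs the median ratio of the signal values, replicate 2 to replicate 1, was 2.13.

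Across the cluster the DHSs had an uneven layout. The span held 10 shared DHSs, 11.0 per Mb against 9.56 per Mb over all chromosomes. The variable exons of Pcdha1 to Pcdha12 (158 kb), the beta genes (262 kb) and the variable exons of the gamma A and B genes (145 kb) each held 0. The stretch from Pcdhac1 to the last alpha constant exon held 4, which is 40.1 per Mb, and that from Pcdhgc3 to the last gamma constant exon held 2, which is 53.4 per Mb. The 200 kb past the gamma genes held 13, or 65.0 per Mb.

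The longest stretch without a shared DHS ran for 426 kb (chr18:37218461-37644080) and held the TSSs of all 22 beta genes. It had no call of either stricter list. Of the stretches between neighbouring shared DHSs across the genome, 4.37% were as long, and of those between neighbouring calls of any kind in the stricter lists 1.07%. With the lenient lists it was cut by the Pcdhb1 call and left 379 kb without a call, over 21 beta genes. A second stretch without a shared DHS, 288 kb, held the TSSs of the 12 alpha genes that are not C-type, and another, 162 kb, those of the 18 gamma A and B genes; 7.05% and 13.5% of the stretches between neighbouring shared DHSs were as long as these.

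Outside promoters (over 1 kb from any protein-coding TSS) the window held 15 shared DHSs, 15 called in replicate 1 only and 10 in replicate 2 only. Their signal was ranked among all distal calls of a library. The 15 shared ones had median percentiles of 89.4 in replicate 1 and 86.1 in replicate 2, beside 85 and 75.2 over all 11430 distal shared DHSs. Enhancer annotation was not used here, so the sites are given by position.

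Between the alpha constant exons and Pcdhb1, 3 shared DHSs stood within chr18:37217181-37218460, 287.2 to 288.1 kb from the start of Pcdha1. At least 1 enhancer of the alpha genes is known to lie past their constant exons, and these sites were not matched to any known enhancer. The DHS nearest to Pcdhb1, chr18:37218201-37218460, lay 46478 bp before its TSS and had signal values of 1.36 and 6.39, at percentiles 93.2 and 98.7 of distal calls. The outermost, chr18:37217181-37217520, had 1.06 and 2.69. The middle one (chr18:37217736-37218140) had 0.771 and 1.13 and is given after its value was seen. All 3 lay only in introns of the long gene models named above.

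Inside the last intron of the alpha genes 2 shared DHSs stood between constant exons, also given after their values were seen. That at chr18:37172301-37172513 (0.85 and 2.21) lay at the start of the antisense transcript Gm38097. That at chr18:37178481-37178680 (0.672 and 1.25) lay at the start of the noncoding transcript Gm10544. Both therefore lay within 1 kb of the start of a transcript on the strand opposite to the protocadherins. These sites, too, were not matched to any known enhancer.

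Past the gamma genes 5 shared DHSs stood close together. The first, chr18:37842061-37842280, was intergenic, just beyond the last gamma exon, and had 1.60 and 4.55 (percentiles 95.6 and 96.8). The next 4 lay in introns of Diaph1. The DHS at chr18:37852161-37852420 had 1.70 and 5.03, and that at chr18:37883561-37883760 had 1.75 and 5.6, the highest value of a distal DHS of the window in replicate 1. Between them stood chr18:37877181-37877600 (0.78 and 2.47) and chr18:37880141-37880480 (1.16 and 2.97).

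Above percentile 90 in both libraries were 4 of the 15 distal shared DHSs: the one nearest to Pcdhb1, the intergenic one past the gamma genes, and the outer pair in Diaph1. Of all distal shared DHSs 19.5% were. The remaining shared ones lay farther out. Before the cluster, chr18:36739881-36740040 in an intron of Tmco6 had 1.14 and 2.28, and chr18:36801621-36802060, over the vault RNA gene Vaultrc5, had 1.12 and 3.04. After it, chr18:37984381-37984556 in an exon of Arap3 had 1.06 and 2.07, and 2 sites beyond Arap3 (chr18:38013848-38014480 and chr18:38024982-38025180) had 1.26 and 2.32, and 1.20 and 2.34.

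Calls of 1 library showed a different layout for each. In replicate 1, 14 of the 15 had a signal value under 0.4 (0.112 to 0.374) and none of the 14 met a lenient call of replicate 2; they lay between and around the gamma constant exons and within Diaph1 and Hdac3. The highest of replicate 1 was a call in the Pcdhac2 exon (chr18:37144507-37144780) with 0.593. It lay 1004 bp from the Pcdhac2 TSS, just past the 1 kb limit, and next to the shared promoter DHS that ends at 37144500. In the lenient list of replicate 1 a Pcdhac2 promoter call ran into it, to 37144760. The next highest were 0.374 in a gamma intron and 0.336 in an exon of Diaph1. In replicate 2 the highest were chr18:37842421-37842920 with 2.68 and chr18:37841409-37841757 in the last gamma exon with 2.52, on either side of the shared intergenic DHS, and chr18:37768161-37768400 with 1.56 at the start of the noncoding transcript Gm26672. The lenient list of replicate 1 held a call at the first 2 of these 3 and none at the last.

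Footprints were present in all of the shared promoter DHSs of the 3 genes. Of all promoter DHSs only 8.77% in replicate 1 and 6.27% in replicate 2 had none. Pcdhac1 had 2 in replicate 1 and 5 in replicate 2. Both footprints of replicate 1 overlapped one of replicate 2, and their centres lay at -89 and -63 bp from the TSS in replicate 1. The wider of them covered 31 bp in replicate 1 and 30 bp in replicate 2. Pcdhac1 thus had a footprint pair upstream of the TSS listed in both libraries.

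Over Pcdhac2, 5 footprints in replicate 1 and 15 in replicate 2 were listed. Of those of replicate 1, 4 overlapped one of replicate 2, all downstream of the TSS, with centres 164, 223, 465 and 867 bp from it. The DHS over the Pcdhgc3 TSS had 4 and 12, and 3 of the 4 overlapped, with centres at -181, -127 and -31 bp from the TSS in replicate 1. The second Pcdhgc3 DHS had 2 and 3, and both of replicate 1 overlapped. In all, these 4 DHSs held 13 footprints in replicate 1 and 35 in replicate 2, or 0.539 and 1.45 per 100 bp, beside 0.885 and 1.31 per 100 bp over all promoter DHSs.

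The 15 distal shared DHSs held 46 and 62 footprints, 1.03 and 1.39 per 100 bp, beside 0.974 and 1.32 over all distal shared DHSs. The intergenic DHS past the gamma genes had 4 in each library, and 4 of those of replicate 1 overlapped one of replicate 2. The DHS nearest to Pcdhb1 had 3 and 5, with 3 overlapping, and the outermost of that group 6 and 6, with 5 overlapping. The middle one was the only distal shared DHS of the window without a footprint in either library. Of all distal shared DHSs, 4.67% in replicate 1 and 3.37% in replicate 2 had none. Overlap was lower at some other distal sites. The DHS over Vaultrc5 had 5 and 4 footprints, with 1 overlapping. That at the start of Gm10544 had 1 and 3, with 0 overlapping. The share of overlapping footprints was not computed over all promoter or distal DHSs.

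CTCF is known to bind in one orientation at the variable promoters and in the other at enhancers past the arrays, so its consensus was searched on both strands. It matched in 3 of the 15 distal shared DHSs (20%, beside 19.0% of all distal shared DHSs). The match lay on the reverse strand in the outermost DHS between the alpha and beta genes and in the Diaph1 DHS at chr18:37883561-37883760, and on the forward strand in the Arap3 DHS. The protocadherin genes run along the forward strand. Each of the 3 matches overlapped a footprint in both libraries, a share that was not computed for matches in the other distal shared DHSs. No match lay in the 4 shared promoter DHSs of the 3 genes.

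At the promoters themselves, from 500 bp upstream to 100 bp downstream of the first TSS, 0 of the 57 genes had a match, beside 0.773% of all protein-coding genes, and with 1 mismatch allowed 0, beside 7.85%. This says only that these letters are not in the window. The letters CGCT, the core of the conserved element known from variable promoters, occurred on the gene's strand in the 300 bp upstream of the TSS at 51 of the 57 genes (89.5%), beside 48.1% of all genes. Of all genes with an observed to expected CpG ratio of 0.6 or more 72.8% had these letters, and of those with a lower ratio 25.7%. Only the letters were counted, not the conserved element itself. Among the 6 of the 57 without them were the C-type genes Pcdhac2 and Pcdhgc5, and Pcdhga12 and upstream Pcdha11. At the genes with a shared promoter DHS, Pcdhgc3 had 4 copies, the most of the 57, Pcdhac1 had 1 and Pcdhac2 had 0.

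The promoters also differed in base composition. The ratio of observed to expected CpG within 500 bp of the first TSS had a median of 0.686 over the 12 alpha genes that are not C-type, 0.378 over the beta genes, 0.588 over gamma A and 0.650 over gamma B. Over all protein-coding genes it was 0.571. Pcdhgc3 had 0.798, Pcdhac2 had 0.681 and Pcdhac1 had 0.564. The highest ratio of the 57 was that of Pcdhga11, 0.864, with no shared promoter DHS.

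A ratio of 0.6 or more was found at 19 of the 52 genes that are not C-type, and 0 of the 19 had a shared promoter DHS. Of all protein-coding genes with such a ratio 90.7% had one, and of those with a lower ratio 24.0%. Their GC content differed from that of the comparison group: all genes with such a ratio had a median GC of 61.4% within 500 bp of the TSS, and the 19 had 46.1%. Of the 12 alpha genes that are not C-type, 11 had that ratio, with a median GC of 45.1% over the 12, and none of them had a call in the stricter lists. The part of GC content in the missing calls was not tested.

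Because the variable exons are related in sequence, some reads may not map to a single place. The share of 32-base words within 1 kb of the first TSS that occur once in the mm10 chromosomes had a median of 93.9% over the 57 genes, and 20 of them (35.1%) lay under 90%, beside 18.8% of all genes. The lowest were Pcdha7 with 73.7%, Pcdha6 with 77.4% and Pcdhb9 with 78.6%. The 5 C-type genes had 99.2% or more. How the authors treated reads with several matches is not given in the sources used here.

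With 90% or more unique words, 3 of 37 clustered protocadherins had a shared promoter DHS, and 0 of the 32 that are not C-type, beside 63.4% of all genes with as many. With both such uniqueness and a CpG ratio of 0.6 or more, 0 of 7 that are not C-type had one, beside 91.4% of all such genes. The 7 had a median GC of 46.2%, and all such genes 61.7%. Under 90% it was 0 of 20, beside 22.4% of all genes. Pcdhb2 and Pcdhgb1, each with 100% unique words, had no call in any list, and Pcdhb1, also with 100%, had only its lenient call in replicate 2. The part of read mapping in the missing calls was not tested.

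**Figure D4:**
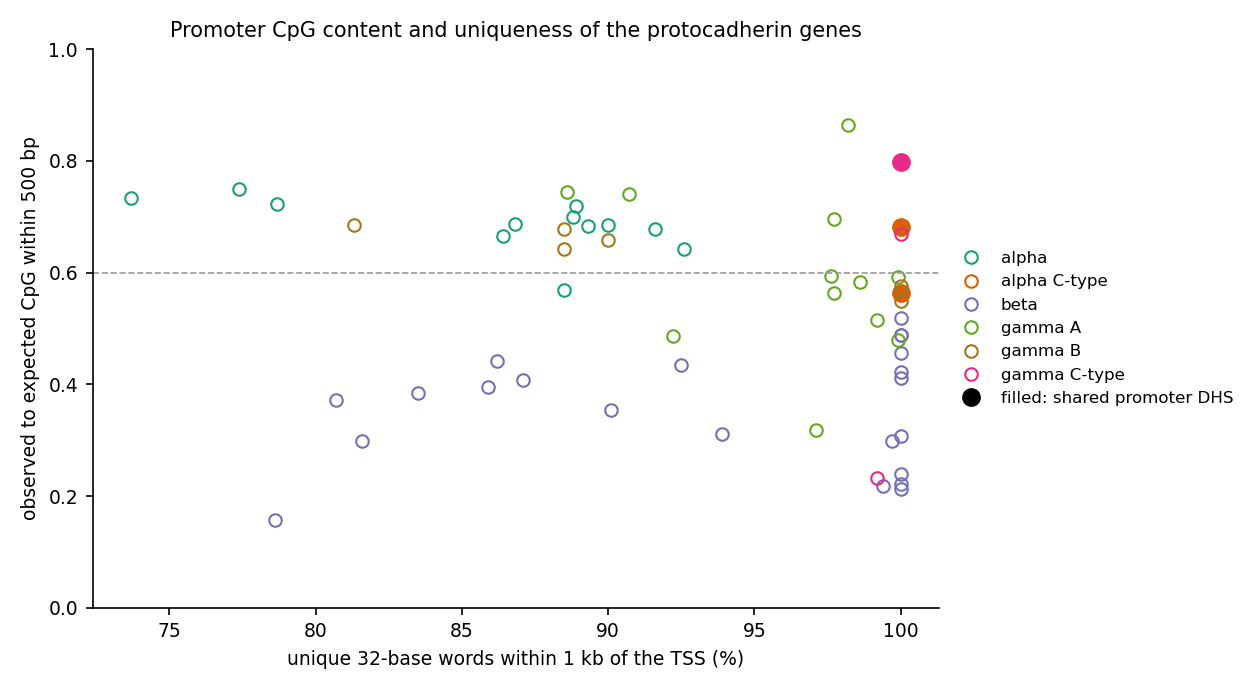
Observed to expected CpG ratio within 500 bp of the first TSS (vertical axis) against the percentage of unique 32-base words within 1 kb of it (horizontal axis) for the 57 genes, coloured by family; filled points are the 3 genes with a shared promoter DHS and the dashed line is a ratio of 0.6. The filled points lie at 100%, and open points lie above and below the line both among the least unique promoters and among the most unique ones.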

How the data were processed

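DNase-seq of 2 libraries of postnatal day 4 left cerebral cortex (biological replicates by their labels) was used, and no test was run, since there is 1 group. Per the file headers, the authors made each file per library in mm10. The deposited peak lists carry a signal value, a tag density of unstated scaling (below 100 steps, all values fell within 0.05 of a whole step, 0.00467 in replicate 1 and 0.00788 in replicate 2). The deposited cut rate table gives q-values, an FDR listed under 0.05; the deposited footprints carry the constant 0.01, whose meaning is not stated and which was not used. Aligner and caller: not given in the sources used here. If a step is 1 tag of a density per 1000000, the depths are 214 and 127 times that number, which bounds the precision by counting error only.

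TSSs were those of basic protein-coding transcripts of GENCODE M21. A shared DHS is the union of calls overlapping by 1 bp or more with a call of each library. Percentiles are within a library. Overlaps, 32-base words and the CTCF consensus were computed with Python 3.11.15, numpy 2.4.6, pandas 2.3.3 and numba 0.67.0, checked on simulated intervals and sequences, on the mm10 (GRCm38) genome. Alternatives were promoter windows of 500 and 2500 bp, the lenient list, the stronger 50% of calls, overlap by 50% of the shorter call, the first TSS alone, summed signal, other FDR limits, footprints wholly inside a DHS, 1 mismatch, and each library alone. Named genes were all C-type genes, Pcdhb1, the 3 highest and first 2 uncalled of each family, and genes called in 1 library; named distal DHSs were the 12 shared with the highest mean percentile and the 3 highest per library of those in 1 library. Uncalled genes tie at 0, so outside the C-type genes only Pcdhga12 could be ranked among the 3 highest. The genes, lists and tests were chosen with earlier results of these data known. Mapping bias between the strains' alleles was not tested.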

Additional observations from a re-analysis of the deposited data

How the results depend on the processing

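Shared promoter DHSs were found at 3 genes with windows of 500 and 2500 bp, the stronger 50% of calls, the 50% overlap rule and the first TSS alone, and 4 with the lenient lists; with 1 library left out it ranged from 3 to 5. Pcdhg genes had 1, 2 with the lenient lists, and 1 to 3 with 1 library left out (3 without replicate 1). Promoter calls of a single library rose with the lenient list from 3 to 5 in replicate 1 and from 5 to 10 in replicate 2. Distal DHSs of the window numbered 15 shared, and 25 to 30 with 1 library left out. Footprints at shared promoter DHSs numbered 48, and 13 to 35 with 1 library left out; at distal DHSs 108, and 46 to 62. An FDR under 0.001 in both libraries held at 3 genes, and under 0.05 at 6. The median percentile of promoter signal of the 3 genes was 43.71, and 47.57 with summed signal and 48.42 with the lenient lists. The cause of these shifts was not tested, apart from the wider lists and the single libraries holding other numbers of calls by construction. No paired analysis was possible because there is 1 group. Depth is implied, not stated, and a promoter open in few cells may fall under what these libraries detect.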
